A study of Homo sapiens with 36 samples.

Results

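The endoplasmic reticulum (ER) folds secreted and membrane proteins, and cells answer misfolded protein there with the unfolded protein response. Its sensors are *ERN1* (IRE1), *EIF2AK3* (PERK) and *ATF6*. *ERN1* splices the *XBP1* mRNA so that it encodes an active transcription factor, ATF6 is released by cleavage and enters the nucleus, and PERK slows translation and favours ATF4. XBP1 and ATF6 raise the mRNAs of ER chaperones and of ER-associated degradation, the route that returns misfolded proteins to the cytosol for the proteasome.

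Described here are 10 genes of that response: the transcription factor gene *XBP1*, the chaperone and folding genes *HSPA5*, *HYOU1*, *SDF2L1*, *CRELD2*, *PDIA4* and *CALR*, and the degradation genes *HERPUD1*, *SEL1L* and *EDEM1*. They were taken by Ensembl identifier from a table of 61587 genes, and each of the 10 was found as 1 row and passed the filter on low counts. RNA was sequenced from 36 libraries of *TXNL1* KO HEK 293T cells, a human embryonic kidney line in which the thioredoxin-like protein TXNL1 was knocked out. KO clones were grown from single sorted cells. Lentivirus with a CMV promoter gave KO cells an empty vector, WT TXNL1, D162R R234D TXNL1, which is deficient in proteasome binding, or SxxS TXNL1, which is mutated in the thioredoxin active site. Each of the 4 lines was left untreated (DMSO in the sample labels), or was exposed for 6 h to arsenite at 100 µM or to hydrogen peroxide at 600 µM, with 3 replicates in each of 12 groups. All lines, the vector line included, therefore carry the KO. Per the study's methods the treatments were done in triplicate in multiwell plates. The methods do not say whether all lines came from 1 clone, or whether replicates were run on separate days. The p-values therefore measure the spread between these libraries.

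Total counts ran from 42072410 to 174119002 per library with a median of 66016833. Levels are given as CPM, the counts scaled to a common library size with edgeR's TMM factors, and a gene was called where edgeR's adjusted p over 22486 tested genes was under 0.05. CPM are relative to the other genes of a library, and a change in total RNA per cell was not measured. *TXNL1* mRNA was 28.6 to 31.7 CPM in untreated vector cells and 51.7 to 66.2 CPM in the untreated complemented lines. Under arsenite it was 67.9 to 71.9 CPM in vector cells and 97.2 to 108 CPM in the others, and under hydrogen peroxide 30.8 to 32.2 CPM and 53.9 to 82.0 CPM. Counts per gene show neither the edit in *TXNL1* nor the splicing of *XBP1*. Of kidney line markers, *VIM* was at 445 to 670 CPM, *KRT18* at 41.7 to 89.8 CPM, *ENO2* at 6.32 to 20.9 CPM and *LHX1* at 0.816 to 2.42 CPM, whereas *PAX2* stayed at or below 0.838 CPM and *NEFM* at or below 0.296 CPM. Arsenite called 3 of these 6 as higher and 1 as lower, with log2 fold changes of -0.41 to 1.31. Of all tested genes it called 37.4% as higher and 31.5% as lower. *PTPRC*, *CD3E*, *HBB* and *ALB*, which define blood and liver cells, reached at most 0.299 CPM, and *COL3A1*, a gene of connective tissue, was at 6.73 to 18.3 CPM and lower under arsenite (log2 fold change -0.49, adjusted p = 3.5e-06). The part of these markers in the results was not tested. WT arsenite replicate 1 and WT hydrogen peroxide replicate 2 stood apart: over 15674 genes, the SD of their log2 CPM around the group median was 0.546 and 0.624, against 0.082 to 0.193 in the other 34 libraries. Counts and called values are given with and without this pair of libraries where they differ.

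Short promoter stretches of 7 of the 10 genes are shown because they carry the elements through which ATF6 and XBP1 are known to act. The ER stress element was searched as CCAAT and CCACG separated by 9 bases, and element II as ATTGG and CCACG separated by 1 base, on both strands of the RefSeq windows (GRCh38.p14) from 250 bases before to 50 bases after each gene start. All 10 genes had a window. The first element was in the windows of *HSPA5*, *XBP1*, *CALR* and *CRELD2*, and in 25 of 27305 genes (0.0916%) overall. Element II was in *HERPUD1*, *SDF2L1* and, at 2 places, *HYOU1*, and in 19 genes (0.0696%) overall. Capitals mark the 5-base parts of each element, which read as their reverse complement in *SDF2L1*, *HYOU1*, *CALR* and *CRELD2*:
HSPA5, chr9:125241383-125241424, minus strand: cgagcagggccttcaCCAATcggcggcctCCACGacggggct
XBP1, chr22:28800598-28800636, minus strand: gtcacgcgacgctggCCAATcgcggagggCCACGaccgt
CALR, chr19:12938369-12938417, plus strand: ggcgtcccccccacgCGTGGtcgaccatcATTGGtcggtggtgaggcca
CRELD2, chr22:49918539-49918587, plus strand: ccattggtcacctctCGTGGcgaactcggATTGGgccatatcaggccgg
HERPUD1, chr16:56932010-56932050, plus strand: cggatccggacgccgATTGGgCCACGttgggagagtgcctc
SDF2L1, chr22:21642099-21642139, plus strand: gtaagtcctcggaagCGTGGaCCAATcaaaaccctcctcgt
HYOU1, chr11:119057365-119057405, minus strand: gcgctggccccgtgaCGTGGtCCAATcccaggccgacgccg
HYOU1, chr11:119057259-119057299, minus strand: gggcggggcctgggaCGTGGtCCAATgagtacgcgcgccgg
These elements ended 33 bases (*XBP1*) to 206 bases (*CALR*) before the RefSeq start, and none of their bases lay in an exon of GENCODE 44. The *CRELD2* stretch nevertheless lies inside the GENCODE span of that gene, which begins before the RefSeq start used here. Neither element was found in the windows of *PDIA4*, *SEL1L* and *EDEM1*, which says only that these letters are not there. An 8-base UPR element (TGACGTGG) overlapped the first of the *HYOU1* elements and was in 0.927% of genes. A C/EBP-ATF element (TGATGCAA followed by C or T) was found in *HERPUD1* alone among the 10 genes and in 0.568% of all genes. The heat shock element, searched as GAA, TTC and GAA with 2 bases between each, was in none of the 10 genes and in 0.608% of all genes.

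Untreated cells held these mRNAs at very different levels. Per kb of exon, *CALR*, a calcium-binding lectin chaperone, was highest with a median of 316 CPM per kb over the 12 untreated libraries (range 298 to 347). *HSPA5*, the main ER HSP70 chaperone (BiP), followed at 112 CPM per kb, then *PDIA4*, a disulfide isomerase, at 53.3, *XBP1* at 40.2, *HYOU1*, an HSP70-related chaperone, at 31.6 and *SDF2L1*, a partner of ER DNAJ proteins, at 27.5 CPM per kb. *HERPUD1*, a membrane protein of the degradation complex, had 7.82, *CRELD2*, an ER-resident stress-inducible protein, 6.57, *SEL1L*, the adaptor of the ubiquitin ligase SYVN1, 6.16, and *EDEM1*, which helps route glycoproteins to degradation, 4.76 CPM per kb. Neighbours in this order had separate ranges over the untreated libraries down to *HYOU1*, whereas the ranges of *HYOU1* and *SDF2L1* overlapped, as did those of *HERPUD1* and *CRELD2*, *CRELD2* and *SEL1L*, and *SEL1L* and *EDEM1*. Under arsenite, the median of *XBP1* (91.0 CPM per kb) moved to the second place and that of *HSPA5* (31.1 CPM per kb) to the fourth, where its range overlapped those of *PDIA4* and *SDF2L1*. Hydrogen peroxide left the order of the 10 medians as in untreated cells.

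Arsenite moved the 10 genes in opposite directions. Averaged over the 4 lines, 9 of 10 were called, with *XBP1* and *HERPUD1* higher and *HSPA5*, *SEL1L*, *PDIA4*, *HYOU1*, *CRELD2*, *EDEM1* and *CALR* lower, while *SDF2L1* was not called. In bulk RNA, fewer cells holding an mRNA and less of it per cell cannot be told apart. Of all tested genes, 68.8% were called in this comparison, 37.4% as higher and 31.5% as lower, so the count of 9 is to be read against a large background. The median log2 fold change of the 10 genes was -0.19, against 0.06 over all tested genes. Without the WT libraries that stood apart, all 10 were called, 2 higher and 8 lower, and the background was 73.7%.

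**Figure D1:**
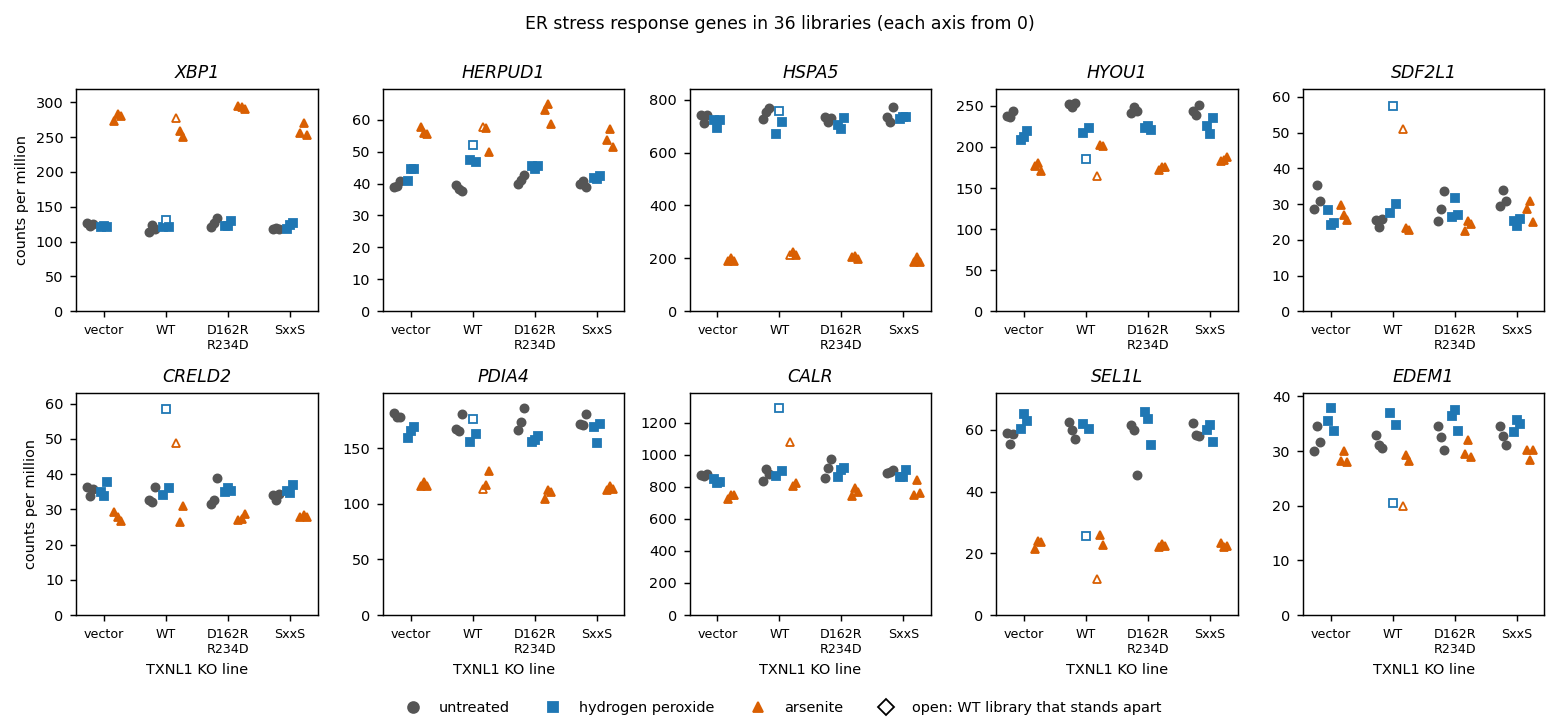
Level of each gene in CPM (vertical axes, each from 0) in the 36 libraries, by line (horizontal axes) and treatment (symbols), with 3 replicates per group and the WT libraries that stood apart as open symbols. *XBP1* rises from 114 to 135 CPM in untreated cells to 250 to 295 CPM under arsenite, *HSPA5* falls from 711 to 770 CPM to 187 to 226 CPM, and the open symbols lie far from the others in *SDF2L1*, *CRELD2*, *CALR*, *SEL1L* and *EDEM1*.

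*HSPA5* (chr9:125234853-125241382, minus strand) fell most. In untreated vector cells its level was 743, 711 and 741 CPM in the 3 replicates, and under arsenite it was 189, 201 and 190 CPM. WT cells had 727, 754 and 768 CPM untreated and 213, 226 and 211 CPM under arsenite. Treated and untreated libraries did not overlap in any of the 4 lines. The share of all tested genes separated in this way was not counted, here or for the genes below. The averaged log2 fold change was -1.87 (SE 0.03, adjusted p = 1.24e-30), which left 0.274 of the untreated level, and the values per line ran from -1.94 in SxxS cells to -1.79 in WT cells. With hydrogen peroxide *HSPA5* was at 671 to 758 CPM with a median of 722 CPM, and these libraries overlapped the untreated ones in every line.

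*XBP1* (chr22:28794555-28800597, minus strand) rose in every line. The vector cells had 127, 122 and 126 CPM untreated and 273, 283 and 280 CPM under arsenite. In WT cells the replicates were at 114, 124 and 119 CPM untreated and at 277, 259 and 250 CPM with arsenite. The lowest arsenite library of any line (250 CPM) was above the highest untreated library (135 CPM). *XBP1* changed by a log2 fold change of 1.16 (SE 0.02, adjusted p = 5.35e-26), a 2.23-fold rise, with 1.13 to 1.20 in the single lines. This is total *XBP1* mRNA, spliced and unspliced together.

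Among the degradation genes, *HERPUD1* (chr16:56932142-56944864, plus strand) rose and *SEL1L* and *EDEM1* fell. *HERPUD1* was at 38.8, 39.2 and 40.9 CPM in untreated vector cells and at 57.8, 55.8 and 55.6 CPM after arsenite. Its averaged log2 fold change was 0.51 (SE 0.03, adjusted p = 1.16e-15), a 1.43-fold rise, and the treated libraries were above the untreated ones in all 4 lines. *SEL1L* (chr14:81471547-81533853, minus strand) had 59.1, 55.6 and 58.7 CPM in untreated vector cells and 21.5, 23.9 and 23.5 CPM with arsenite. The fall of *SEL1L* averaged -1.40 on the log2 scale (SE 0.11, adjusted p = 1.43e-12), and the groups did not overlap in any line. *EDEM1* (chr3:5187646-5219958, plus strand) went from a median of 32.1 CPM untreated to 29.1 CPM, a log2 fold change of -0.18 (SE 0.07, adjusted p = 0.0208). Its treated and untreated libraries overlapped in the vector and D162R R234D lines. Omission of the WT libraries that stood apart gave -0.16 (SE 0.03, adjusted p = 1.72e-05) for *EDEM1*.

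The folding genes fell by less than *HSPA5*. *PDIA4* (chr7:149003062-149028662, minus strand) was at 166 to 186 CPM in the 12 untreated libraries and at 105 to 129 CPM under arsenite, a log2 fold change of -0.61 (SE 0.03, adjusted p = 1.33e-17). For *HYOU1* (chr11:119044188-119057227, minus strand) the ranges were 237 to 253 CPM and 164 to 203 CPM, a change of -0.44 (SE 0.03, adjusted p = 2.27e-13). Both were separated from the untreated libraries in every line, again without a share over all tested genes to set beside it. *CRELD2* (chr22:49918167-49927540, plus strand) changed by -0.21 (SE 0.08, adjusted p = 0.0171) and *CALR* (chr19:12938578-12944489, plus strand) by -0.16 (SE 0.05, adjusted p = 0.00624). Their treated libraries lay below the untreated ones in the vector, D162R R234D and SxxS lines and overlapped them in the WT line, where 1 of the libraries that stood apart belongs. Omission of the WT libraries that stood apart gave -0.30 (SE 0.03, adjusted p = 1.18e-10) for *CRELD2* and -0.22 (SE 0.02, adjusted p = 1.49e-11) for *CALR*. *SDF2L1* (chr22:21642302-21644299, plus strand) was at 23.6 to 35.3 CPM untreated and 22.4 to 51.0 CPM under arsenite, with a log2 fold change of -0.06 (95% interval -0.29 to 0.16, adjusted p = 0.618). Leaving out the WT libraries that stood apart gave -0.21 (SE 0.05, adjusted p = 0.000332) for *SDF2L1*, and leaving out WT arsenite replicate 1 alone gave -0.19 (adjusted p = 0.0486).

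**Figure D2:**
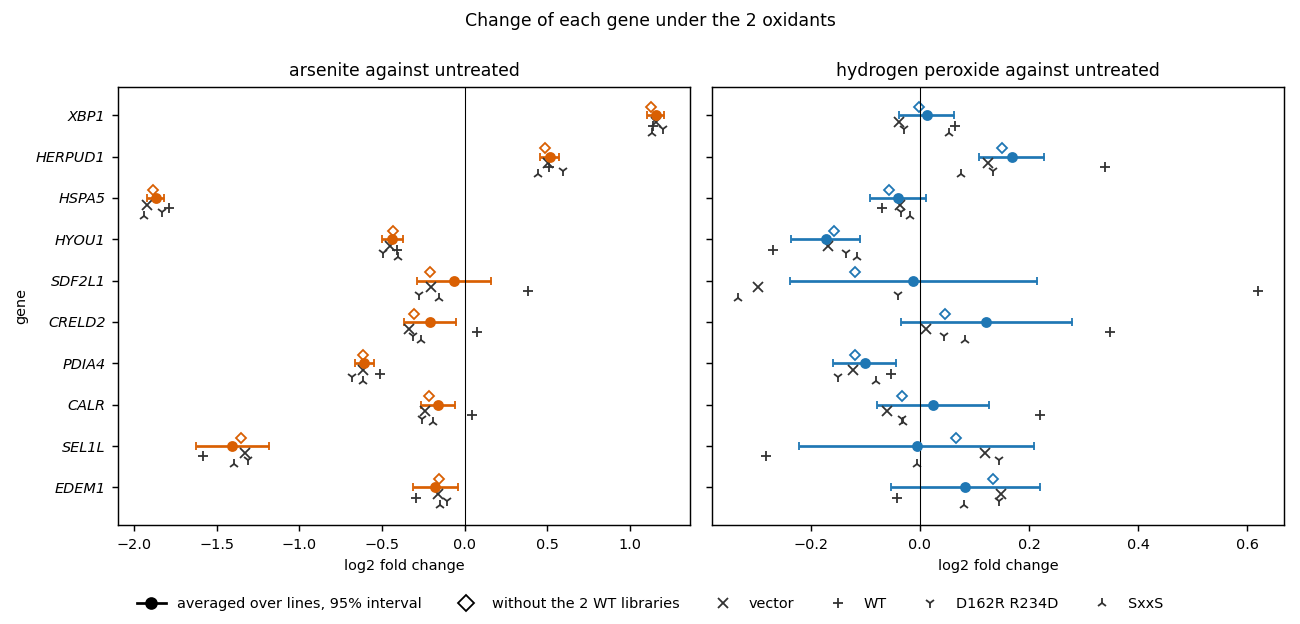
Log2 fold change against untreated cells (horizontal axes, a different scale in each panel) of each gene under arsenite and hydrogen peroxide, averaged over the lines with the 95% interval from edgeR (filled circles), without the WT libraries that stood apart (diamonds) and in each line (small symbols). *HSPA5* lies at -1.87 and *XBP1* at 1.16 under arsenite, while hydrogen peroxide values averaged over the lines stay between -0.17 and 0.17.

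Line by line, the direction of the larger changes repeated. Of the 10 genes, 6 were called under arsenite in the vector line (43.4% of all tested genes), 6 in the WT line (53.6%), 7 in the D162R R234D line (44.0%) and 6 in the SxxS line (43.6%). These were *XBP1* and *HERPUD1* as higher and *HSPA5*, *SEL1L*, *PDIA4* and *HYOU1* as lower in each line, with *CALR* added in D162R R234D cells (-0.25, adjusted p = 0.0400). The *CALR* call was lost when any 1 of 5 of the 6 libraries of that comparison was left out. In the vector line, *CALR* (-0.24), *CRELD2* (-0.34), *EDEM1* (-0.16) and *SDF2L1* (-0.21) did not pass, and all 4 passed when only the 6 vector libraries compared were fitted and when the WT libraries that stood apart were left out, each giving a count of 10, with 58.8% and 56.4% of all tested genes called. The same 4 genes also passed in the SxxS line when fitted on its own libraries, again a count of 10, with 59.0% of all tested genes called. In the WT line the values of *SDF2L1* (0.38), *CRELD2* (0.08) and *CALR* (0.05) were above 0 and did not pass. Without the libraries that stood apart they were -0.14, -0.25 and -0.13, of which *CRELD2* and *CALR* passed, as did *EDEM1* (-0.17, adjusted p = 0.0364). That omission gave 9 called genes each in the WT, D162R R234D and SxxS lines, with 52.9%, 56.9% and 57.0% of all tested genes called.

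Whether TXNL1 altered the arsenite response was tested as the interaction of line and treatment. None of the 10 genes was called (lowest adjusted p = 0.807, 0 genes at an unadjusted p under 0.05), and 0% of all tested genes were called, with 1432 at an unadjusted p under 0.05. DESeq2 and the other alternatives also called 0 of the 10, with a lowest adjusted p of 0.294 over them. The difference between WT and vector in log2 fold change was 0.13 for *HSPA5* (95% interval -0.01 to 0.27), -0.01 for *XBP1* (-0.16 to 0.13) and 0.01 for *HERPUD1* (-0.16 to 0.17). The interval was widest for *SDF2L1*, from -0.05 to 1.23, and reached from -0.87 to 0.36 for *SEL1L*. These widths include the WT libraries that stood apart: without them the SE of the arsenite change in the vector line fell from 0.22 to 0.093 for *SDF2L1* and from 0.22 to 0.075 for *SEL1L*. Between the complemented lines, the unadjusted p was under 0.05 for *SDF2L1* (-0.66), *CALR* (-0.30) and *PDIA4* (-0.17) in D162R R234D minus WT and for *HSPA5* (-0.15) in SxxS minus WT, with adjusted p of 0.303 to 0.685. How many of all tested genes were under 0.05 in these single contrasts was not counted. With the libraries that stood apart left out, the arsenite changes in WT and D162R R234D cells were -0.14 and -0.29 for *SDF2L1*. They were -0.13 and -0.27 for *CALR* and -0.50 and -0.70 for *PDIA4*. For *HSPA5* they were -1.80 in WT and -1.96 in SxxS cells. The interaction then called 0.205% of all tested genes and none of the 10.

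Hydrogen peroxide changed the genes little. Averaged over the lines, 3 of 10 were called, against 12.1% of all tested genes (6.78% higher and 5.30% lower). *HERPUD1* rose by a log2 fold change of 0.17 (SE 0.03, adjusted p = 0.000156), *HYOU1* fell by 0.17 (SE 0.03, adjusted p = 0.000238) and *PDIA4* fell by 0.10 (SE 0.03, adjusted p = 0.0167). The medians of *HERPUD1* were 39.6 CPM untreated and 44.6 CPM treated, those of *HYOU1* 244 and 220 CPM, while *PDIA4* ranged from 166 to 186 CPM untreated and from 155 to 176 CPM treated. *HYOU1* was below the untreated libraries in all 4 lines, *HERPUD1* was above them in all lines but the vector line, and *PDIA4* overlapped in 2 lines. How many of all tested genes were separated in this way under hydrogen peroxide was not counted. *HSPA5* (-0.04, 95% interval -0.09 to 0.01) and *XBP1* (0.01, -0.04 to 0.06) did not pass, and their intervals leave room only for changes far smaller than those with arsenite. Without the WT libraries that stood apart, 5 genes passed, with *HSPA5* at -0.06 (adjusted p = 0.0316) and *EDEM1* at 0.13 (adjusted p = 0.000742) added, and the background was 28.6%.

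Within single lines, hydrogen peroxide called 0 of 10 genes in the vector line (1.35% of all tested genes), 2 in the WT line (8.06%), 0 in the D162R R234D line (1.03%) and 0 in the SxxS line (1.02%). At an unadjusted p under 0.05 the counts were 3, 5, 3 and 0, against 2542, 5666, 2408 and 2208 of the 22486 tested genes. *HERPUD1* in WT cells was at 39.5, 38.3 and 37.8 CPM untreated and 47.4, 52.1 and 46.7 CPM treated, a log2 fold change of 0.34 (SE 0.06, adjusted p = 0.000539), and *HYOU1* changed by -0.27 (SE 0.06, adjusted p = 0.00675). Fitted on the WT libraries alone the values were 0.34 and -0.27 and neither passed, in a fit that called 0.00445% of all tested genes. When WT hydrogen peroxide replicate 2 alone was left out, *HYOU1* no longer passed. Without both libraries that stood apart, 3 genes passed in the vector line (*SDF2L1*, *HYOU1* and *PDIA4*, all lower), 2 in the WT line, 2 in the D162R R234D line and 2 in the SxxS line, while 9.87%, 8.98%, 10.4% and 6.56% of all tested genes were called. Those in the WT line were again *HERPUD1* (0.28, adjusted p = 0.000563) and *HYOU1* (-0.20, adjusted p = 0.000379).

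The interaction of line and hydrogen peroxide called 0 of the 10 genes, against 0.685% of all tested genes, and 2 had an unadjusted p under 0.05, *HERPUD1* (adjusted p = 0.384) and *SDF2L1* (adjusted p = 0.392). Of all 22486 tested genes, 1970 had an unadjusted p under 0.05. *SDF2L1* had log2 fold changes of 0.62 in WT cells, -0.30 in vector cells, -0.04 in D162R R234D cells and -0.33 in SxxS cells. In WT cells its treated replicates were at 27.5, 57.5 and 29.9 CPM, and the highest of them was one of the libraries that stood apart. Without both, the WT value was 0.20 and the adjusted p of the *SDF2L1* interaction 0.0981.

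Set directly against hydrogen peroxide, arsenite called 9 of the 10 genes, 2 higher and 7 lower, against 68.7% of all tested genes. The log2 difference was -1.83 (SE 0.03) for *HSPA5* and 1.15 (SE 0.02) for *XBP1*. *HERPUD1*, which was called as higher with each oxidant, was higher by 0.35 (SE 0.03, adjusted p = 1.03e-11) under arsenite than under hydrogen peroxide. *SDF2L1* was not called (-0.05, 95% interval -0.28 to 0.17).

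In untreated cells the TXNL1 variants left the 10 genes without a call. The count was 0 for WT against vector (0.196% of all tested genes), 0 for D162R R234D (0.0267%) and 0 for SxxS (0.0178%), with 0 genes at an unadjusted p under 0.05 in each. Of all 22486 tested genes, 1574, 702 and 744 were under that threshold. *HSPA5* had a mean of 731 ± 18.0 CPM without TXNL1, of 750 ± 20.4 CPM with the WT protein, of 726 ± 9.55 CPM with D162R R234D and of 740 ± 28.4 CPM with SxxS (SD, n = 3 each). *SDF2L1* was at 28.7, 35.3 and 30.9 CPM in vector cells and 25.4, 23.6 and 25.8 CPM in WT cells, ranges that did not overlap, with a log2 difference of -0.34 (95% interval -0.80 to 0.11, adjusted p = 0.885). It passed without the libraries that stood apart (adjusted p = 0.0471) and when only these 6 libraries were fitted (adjusted p = 0.0161). Those fits called 2.99% and 2.07% of all tested genes. The share of all tested genes with separate ranges was not counted. The log2 differences of the other 9 genes from vector cells ran from -0.08 for *XBP1* in SxxS to 0.07 for *CALR* in D162R R234D cells.

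The libraries that stood apart did so in the same genes of the response. In WT arsenite replicate 1, *SDF2L1* was at 51.0 CPM against a mean of 23.1 CPM in the other replicates, and in WT hydrogen peroxide replicate 2 at 57.5 against 28.7 CPM. *CRELD2* was 1.70-fold and 1.66-fold, and *CALR* 1.33-fold and 1.46-fold, the mean of the other replicates. *SEL1L* was at 47.5% and 42.1% of that mean and *EDEM1* at 69.8% and 57.1%, whereas *HSPA5*, *XBP1* and *HERPUD1* differed by at most 0.15 on the log2 scale. *HYOU1* was at 81.3% and 84.4%. The part of these libraries' composition in each result was not tested beyond leaving them out.

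**Figure D3:**
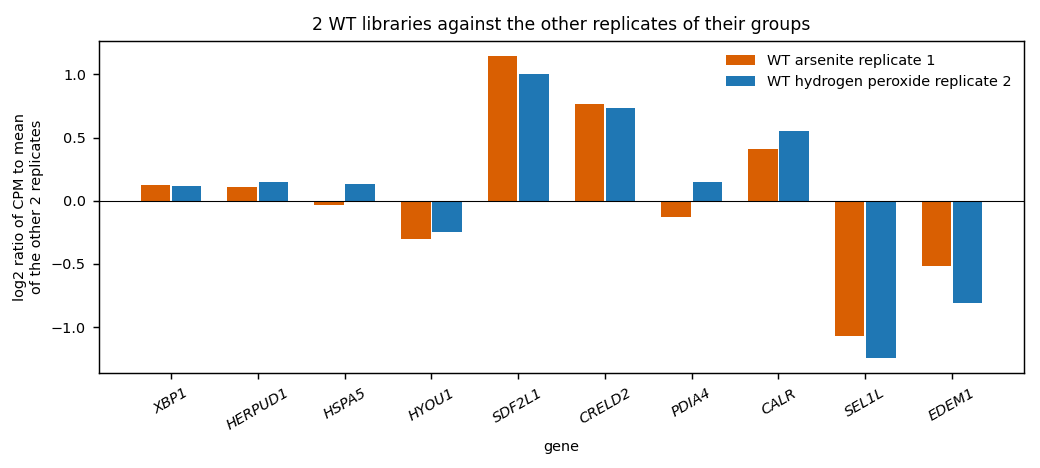
Log2 ratio of CPM (vertical axis) of each gene in WT arsenite replicate 1 and WT hydrogen peroxide replicate 2 to the mean of the other replicates of the same group. *SDF2L1*, *CRELD2* and *CALR* are above 0 and *SEL1L* and *EDEM1* below 0 in both libraries, from -1.25 for *SEL1L* to 1.15 for *SDF2L1*.

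The 3 sensors of the response were all called under arsenite, which called 68.8% of all tested genes, 37.4% as higher and 31.5% as lower. *ERN1* rose by a log2 fold change of 0.89 (SE 0.12, adjusted p = 1.45e-07) and *ATF6* by 0.27 (SE 0.05, adjusted p = 1.15e-05), and *EIF2AK3* fell by 1.18 (SE 0.09, adjusted p = 1.1e-12). With hydrogen peroxide none of the 3 was called, at 0.0019, 0.06 and 0.03 for *ERN1*, *ATF6* and *EIF2AK3*. Among 15 other ER folding genes, arsenite called 2 as higher, the oxidase *ERO1B* (0.39) and the HSPA5 exchange factor *SIL1* (0.26), and 9 as lower, led by the HSPA5 co-chaperones *DNAJB9* (-1.27) and *DNAJC3* (-0.79), with a list median of -0.29. Hydrogen peroxide called none of the 15, against 12.1% of all tested genes.

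Of 13 further genes of ER-associated degradation, arsenite called 4 as higher and 6 as lower, with a median of -0.04. This count and the next are to be read against 68.8% of all tested genes, 37.4% higher and 31.5% lower. The ATPase *VCP* (0.47) and its partner *UFD1* (0.33) rose most, and *EDEM3* (-1.69) and the lectin *ERLEC1* (-0.86) fell most, while *SYVN1*, the ligase that works with SEL1L, was not called (-0.02). Among 12 genes of translocation and traffic, arsenite called 2 as higher, *SEC61G* (0.20) and *SEC23B* (0.17), and 8 as lower, with *SPCS3* at -1.43 and *SSR1* at -1.19 and a median of -0.45. With hydrogen peroxide the receptor *KDELR3* (0.12) alone of the 12 was called, against 12.1% of all tested genes.

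Genes listed for the PERK and ATF4 arm mostly rose. PERK activity was not measured, and the part of PERK in these changes was not tested. Of 11 tested, arsenite called 10 as higher and 1 as lower, with a median log2 fold change of 2.32. Of all tested genes it called 37.4% as higher and 31.5% as lower. *ATF3* rose 21.5-fold and *SESN2* 10.6-fold, the smallest rise was that of *ATF4* itself (1.32-fold), and the lipoprotein receptor *VLDLR* fell (-0.60). Hydrogen peroxide called 9 of the 11 as higher with a median of 0.30, against 6.78% of all tested genes called as higher. Among the 9, *CHAC1* (0.92) and *ATF4* (0.46) were at the top and *TRIB3* (0.23) and *PPP1R15A* (0.16) at the bottom. *NUPR1*, the twelfth of the list, had too few counts. Of 8 cytosolic heat shock genes set beside them, arsenite called 5 as higher, from *HSP90AA1* (0.68) to *DNAJB1* (3.68) and *BAG3* (3.93), and 1 as lower, the constitutive chaperone *HSPA8* (-0.64). *HSPA1A* and *HSPA1B* were not called and are near-identical copies that share reads. With hydrogen peroxide *HSPA1B* (0.17) and *DNAJB1* (-0.09) were called, against 12.1% of all tested genes. Without the libraries that stood apart the arsenite counts were 2 higher and 11 lower for folding, 4 and 8 for degradation, 2 and 9 for traffic, 10 and 1 for the ATF4 arm and 5 and 2 for the heat shock genes. Of all tested genes, 73.7% were then called. The same omission gave, for hydrogen peroxide, 3 higher and 3 lower folding genes, 3 and 0 traffic genes, 9 and 0 genes of the ATF4 arm and 2 and 1 heat shock genes, and 1 sensor as higher. There 28.6% of all tested genes were called.

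**Figure D4:**
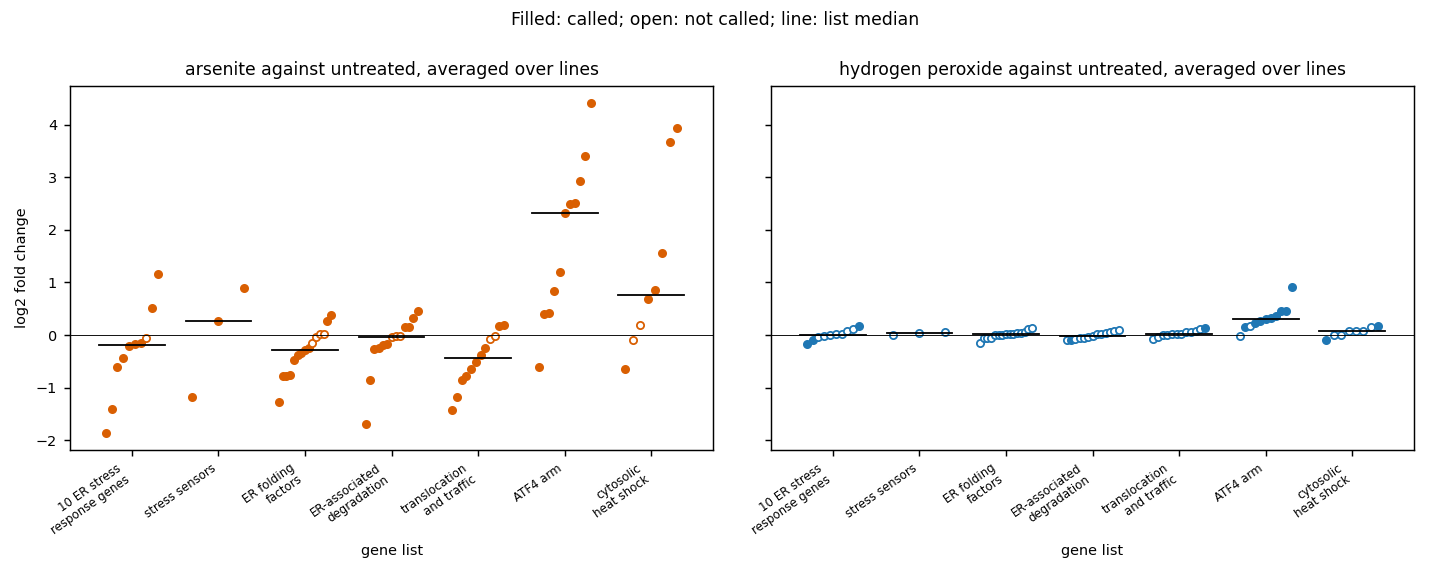
Log2 fold change (vertical axis) of each gene of 7 lists (horizontal axis) under arsenite and hydrogen peroxide, averaged over the lines, with called genes filled and a bar at each list's median. Under arsenite the median is 2.32 for the ATF4 arm and -0.29 for ER folding factors, and under hydrogen peroxide it is 0.30 and 0.01.

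Genes that carry an ER stress element went both ways, as did all tested genes. Of 44 genes with either element in a RefSeq window, 32 were tested, and arsenite called 16 as higher and 11 as lower, with a median log2 fold change of 0.08 against 0.06 over all tested genes. Of all tested genes, 37.4% were called as higher and 31.5% as lower. For the first element alone it called 6 as higher and 8 as lower (median -0.09, 16 tested), and for element II 10 as higher and 3 as lower (median 0.22, 16 tested). With the 10 genes described here left out, 14 were called as higher and 7 as lower, with a median of 0.21 over 25 tested. Hydrogen peroxide called 2 of the 32 as higher and 1 as lower, against 6.78% and 5.30% of all tested genes. Of the 7 genes printed above, *HSPA5* and *XBP1*, which both carry the first element, were the ones that fell and rose most. Among other ER genes with the first element, named after their values were seen, *FICD* (-1.46), *HSP90B1* (-0.48), *CANX* (-0.38) and *PDIA6* (-0.29) fell, *ERO1B* (0.39) rose and *SERP1* (-0.03) was not called.

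The genes whose log2 CPM followed *HSPA5* most closely over the 36 libraries, among 10245 genes with a mean of at least 10 CPM, were *INTS5*, *GEMIN4*, *FAM78A*, *DOLK* and *ID2*, all with Pearson's r of 0.996. For *HERPUD1* they were *EIF1* (0.953), *TRIB3* (0.950), an unnamed gene, *TESK1* (0.947) and *HMOX1* (0.946). None of these was one of the 10 genes. The libraries fall into arsenite and other libraries, so these values mostly describe that split and carry no test.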

How the data were processed

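The authors sequenced 100-bp paired-end reads, aligned them with qAlign (QuasR) to the GRCh38 primary assembly and deposited raw counts per gene, without normalization or pooling, together with a length per gene. Annotation release, strand and mates counted are not given in the sources used here. Exons of *HYOU1*, *CALR* and *EDEM1* overlap opposite-strand genes over 9.77%, 9.64% and 9.37% of their length, and *CRELD2* (with *ALG12*) over 3.25%, so reads of these pairs cannot be told apart if strand was not used. Positions are from GENCODE 44. Lengths equalled its exon length for 93.6% of matched genes but not for *HYOU1* (7723 against 6825 bases). All 36 libraries were mapped to groups by their labels. Doses and exposure time are from the study's methods. No pair of replicates was a duplicate.

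Of 42726 genes with a count, 22486 with at least 10 counts over the untreated vector libraries (the study's filter) were tested and 20240 left out. edgeR 4.0.16 (R 4.3.3) was used with TMM scaling, 12 group means, robust quasi-likelihood and Benjamini-Hochberg adjustment over all tested genes. SE is the absolute log2 fold change divided by the square root of F. The biological coefficient of variation was 12.4%. The code was tested on simulated data. Alternatives were RLE factors, total counts, DESeq2 1.42.0, other filters, only the groups compared, a replicate block, halved counts, a fold threshold and libraries left out. Members and lists were chosen with earlier results of these data known. Named genes are the 10 members, *TXNL1*, every gene of lists up to 3 and otherwise the 2 highest and 2 lowest called genes of each list, and the 5 genes most alike to *HSPA5* and *HERPUD1*. *SYVN1* and the genes with an ER stress element were added afterwards. Hydrogen peroxide results of the degradation list are not reported here. The study's proteomics was not analysed here.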

Additional observations from a re-analysis of the deposited data

How the results depend on the processing

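Of 1740 values of single genes under the alternatives, 1653 kept their direction and their side of the threshold, and none of the 48 called values changed direction. RLE factors, total counts, edgeR's expression filter, halved counts and DESeq2 kept every count of called genes within 1.5 times. Replicate numbers paired the samples at most in part. In 5 of 24 pairs of libraries with the same number the deviations correlated above 0.1. Of 24 treated libraries, 13 correlated best with their own number, more than an even spread over the 3 replicates would give. All 3 hydrogen peroxide pairs of the D162R R234D line were above 0.1 (0.306, 0.127 and 0.315), and there the block gave 0 called genes, as before. With a replicate block the counts were as before, 9 for arsenite and 3 for hydrogen peroxide averaged over the lines.

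A log2 fold change of at least 1 left 3 genes for arsenite averaged, in each line and against hydrogen peroxide (*HSPA5*, *SEL1L*, *XBP1*), and 0 for hydrogen peroxide averaged and in WT cells. In the counts that follow, the share of all tested genes called is in brackets. Omission of both WT libraries that stood apart gave 10 for arsenite in the vector line (56.4%). For hydrogen peroxide it gave 5 averaged (28.6%), 3 in the vector (9.87%), 2 in the D162R R234D (10.4%) and 2 in the SxxS line (6.56%). For WT against vector it gave 1 (2.99%). Fits of only the groups compared gave 10 for arsenite in the vector (58.8%) and SxxS lines (59%), and 1 for WT against vector (2.07%). For hydrogen peroxide they gave 3 in the vector (12.5%), 0 in the WT (0.00445%) and 1 in the SxxS line (7.21%). Without a filter, 1 gene was called for hydrogen peroxide in WT cells (2.5%), and leaving out single libraries gave 1 to 5 there. Shares of all tested genes are not given for the fold threshold or for single libraries left out. For other comparisons, single libraries left out gave 9 to 10 for arsenite averaged, 6 to 6 in vector, 6 to 8 in WT, 6 to 7 in D162R R234D and 6 to 6 in SxxS cells, and 3 to 4 for hydrogen peroxide averaged.

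Reversed values were all of genes not called. For arsenite in WT cells, total counts gave -0.057 for *CALR* and -0.038 for *CRELD2*, where this scaling lowered the 10 genes by a median of -0.094, and omission of both WT libraries gave -0.14 for *SDF2L1*, -0.13 for *CALR* and -0.25 for *CRELD2*. For hydrogen peroxide averaged, that omission gave -0.0019 for *XBP1*, -0.033 for *CALR* and 0.066 for *SEL1L*, and no filter gave 0.0011 for *SDF2L1* and 0.0058 for *SEL1L*. In WT cells with hydrogen peroxide, omission of both WT libraries gave 0.022 for *SEL1L* and 0.18 for *EDEM1*. With single libraries left out, arsenite in WT cells ranged from -0.12 to 0.59 for *SDF2L1*, -0.10 to 0.12 for *CALR* and -0.23 to 0.25 for *CRELD2*. Hydrogen peroxide averaged ranged from -0.12 to 0.035 for *SDF2L1*, -0.028 to 0.050 for *CALR* and -0.055 to 0.072 for *SEL1L*, and in WT cells from -0.48 to 0.028 for *SEL1L* and -0.19 to 0.18 for *EDEM1*. *SDF2L1* ranged from -0.18 to 0.053 for arsenite against hydrogen peroxide. Beyond the omitted libraries, the cause was not tested.

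Fitted over all libraries, the 95% intervals within a line reached 0.45 on either side for *SDF2L1* and *SEL1L*, where omission of the WT libraries that stood apart gave smaller SEs. Counts per gene do not show splicing, translation or protein.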
